A study of Mus musculus with 12 samples.

Results

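The genes described here build the fibrous matrix of connective tissue. They are 40 of the 22195 mouse genes in the files: 17 collagen chains, 6 genes that process or crosslink collagen, 5 adhesive glycoproteins or matricellular proteins, 4 proteoglycans, 5 elastic fibre genes and 3 fibroblast surface genes. The 40 were taken from a list by name, with no threshold on measured values, and all 40 passed the filter on low counts. The list was chosen with earlier results of these data known. RNA was sequenced from whole skin tumours that the mouse melanoma line YUMM 2.1 formed under the skin of C57BL/6J mice with an intact immune system. The 4 groups of 3 libraries differ in the antibody given once tumours measured 20 to 50 mm3: an isotype control IgG, anti-B7-H3 (against a checkpoint protein of the B7 family), anti-PD1 (against a checkpoint receptor of T cells) or the combination of both. All groups share the cell line and the mouse strain; ages and tumour sizes at collection are not stated in the sources used here and a single tumour line was used. Whether the 3 libraries of a group come from 3 mice is not stated, so p-values measure the spread between these libraries, which may be technical.

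Fibroblasts and related stromal cells secrete procollagen chains that fold as trimers, are trimmed outside the cell and are joined by lysyl oxidases into fibrils. Collagen I and III form the bulk of fibrils in skin, collagen V takes part in starting them, and collagen IV forms the sheet of basement membranes around vessels and epithelia. Tumours often hold a stroma of this kind, to which tumour cells and macrophages can also add matrix proteins such as fibronectin. In whole tumour RNA, fewer cells of a type and less RNA per cell cannot be told apart.

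Several of these genes lie beside each other. Start regions are shown for the pair Col4a1 and Col4a2, whose ratio is tested below, and for Col1a2 and Col18a1, a chain called higher and a chain called lower with anti-B7-H3. Col4a1 (chr8:11198423-11312826, minus strand) and Col4a2 (chr8:11312805-11449287, plus strand) of mouse build GRCm38 run head to head and overlap by 22 bases. Col3a1 and Col5a2 lie 24614 bases apart on chromosome 1, Dcn and Lum 46984 bases apart on chromosome 10, and Col6a2 and Col6a1 85161 bases apart on the same chromosome. In the stretches below, from RefSeq for GRCm38.p6, capitals mark the letters CCAAT, or ATTGG, which is CCAAT on the other strand. Each is read 5′ to 3′ on the strand of its gene.
Col1a2 (chr6:4505497-4505526, plus strand, 109 bases before the start): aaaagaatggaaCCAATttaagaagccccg
Col4a1 (chr8:11312954-11312983, minus strand, 145 bases before the start): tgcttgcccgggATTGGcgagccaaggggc
Col4a2 (chr8:11312761-11312790, plus strand, 32 bases before the start): ccgaggagctccCCAATttgttggcgctgc
Col18a1 (chr10:77166723-77166752, minus strand, 210 bases before the start): cgcgttggagacATTGGagagaggacgaga
Of the 40 genes, 25 had a promoter entry in the RefSeq table, with 30 entries in all. CCAAT on either strand stood within 250 bases before the start in 7 of the 30, each from a different gene (Col1a2, Col4a1, Col4a2, Col5a3, Col16a1, Col18a1 and Vcan). The same letters were in 33.8% of all 32851 promoters of that length. A match describes the letters of the window and is not a binding site.

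The promoter of Postn, the gene of periostin, holds TATAAA 26 bases before its start, shown here in capitals in the stretch chr3:54360977-54361106 on the plus strand.
Postn: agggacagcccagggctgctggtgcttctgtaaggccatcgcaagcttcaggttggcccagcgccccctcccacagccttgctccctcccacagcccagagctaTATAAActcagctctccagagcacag
TATAAA on either strand was in 4 of the 30 promoter entries, from 3 genes (Col3a1, Postn and Tnc), and in 12.4% of all. GGGCGG, or CCGCCC on the other strand, was in 18 of the 30 entries, from 16 genes, against 32.7% of all promoters.

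The libraries differ in what fills them, and every comparison with isotype control rests on that. A group of 12 satellite-like genes (repeated sequence with gene names) took 90.3% to 93.7% of reads in isotype control, 68.7% to 74.5% in anti-PD1, 30.1% to 34.0% in combination and 0.0944% to 0.222% in anti-B7-H3 libraries. The reads outside them numbered 1340740 to 1512904, 2530053 to 2793354, 2902722 to 3493031 and 3570071 to 3917954 in the same order. Levels are given as CPM, estimated counts scaled to a common library size with TMM, a method that assumes most genes do not change. A background was set from 1550 chemoreceptor genes, which serve smell and taste: in isotype control they held 7.46 reads per kilobase and library on average, against 0.0927 in anti-B7-H3. A gene counts as well above background where every group has at least 3 times the reads this rate gives for its length, and 32 of the 40 do. The other 8 are Col14a1, Loxl1, Dpt, Eln, Fbln1, Mfap5, Fap and Pdgfra. A call is an adjusted p under 0.05 over 13478 genes.

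The 40 genes together held the smallest share of reads outside the satellite-like genes in isotype control and the largest with anti-B7-H3. Of the reads outside the satellite-like genes they took 2.06%, 1.64% and 1.92% in the isotype control libraries, 7.31%, 7.32% and 7.36% with anti-B7-H3, 4.86%, 4.62% and 4.87% with anti-PD1, and 5.92%, 5.95% and 5.92% with the combination. No library of any group overlapped another group (exact permutation test of the group labels, 369600 arrangements, p = 6.49e-05, the smallest it can give). For the 32 of the 40 genes that stand well above background, counted against the 4291 such genes alone, the means were 2.27% ± 0.273 (SD, n = 3), 9.65% ± 0.0363, 5.99% ± 0.173 and 7.64% ± 0.0191, in the same order. Shares of this kind do not use the scaling between libraries, but they do use the reads of the other genes. Those include background reads, at a higher rate in isotype control. The order of the shares runs opposite to that of the satellite-like reads, and the part of satellite-like and background reads in this result was not tested.

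**Figure D1:**
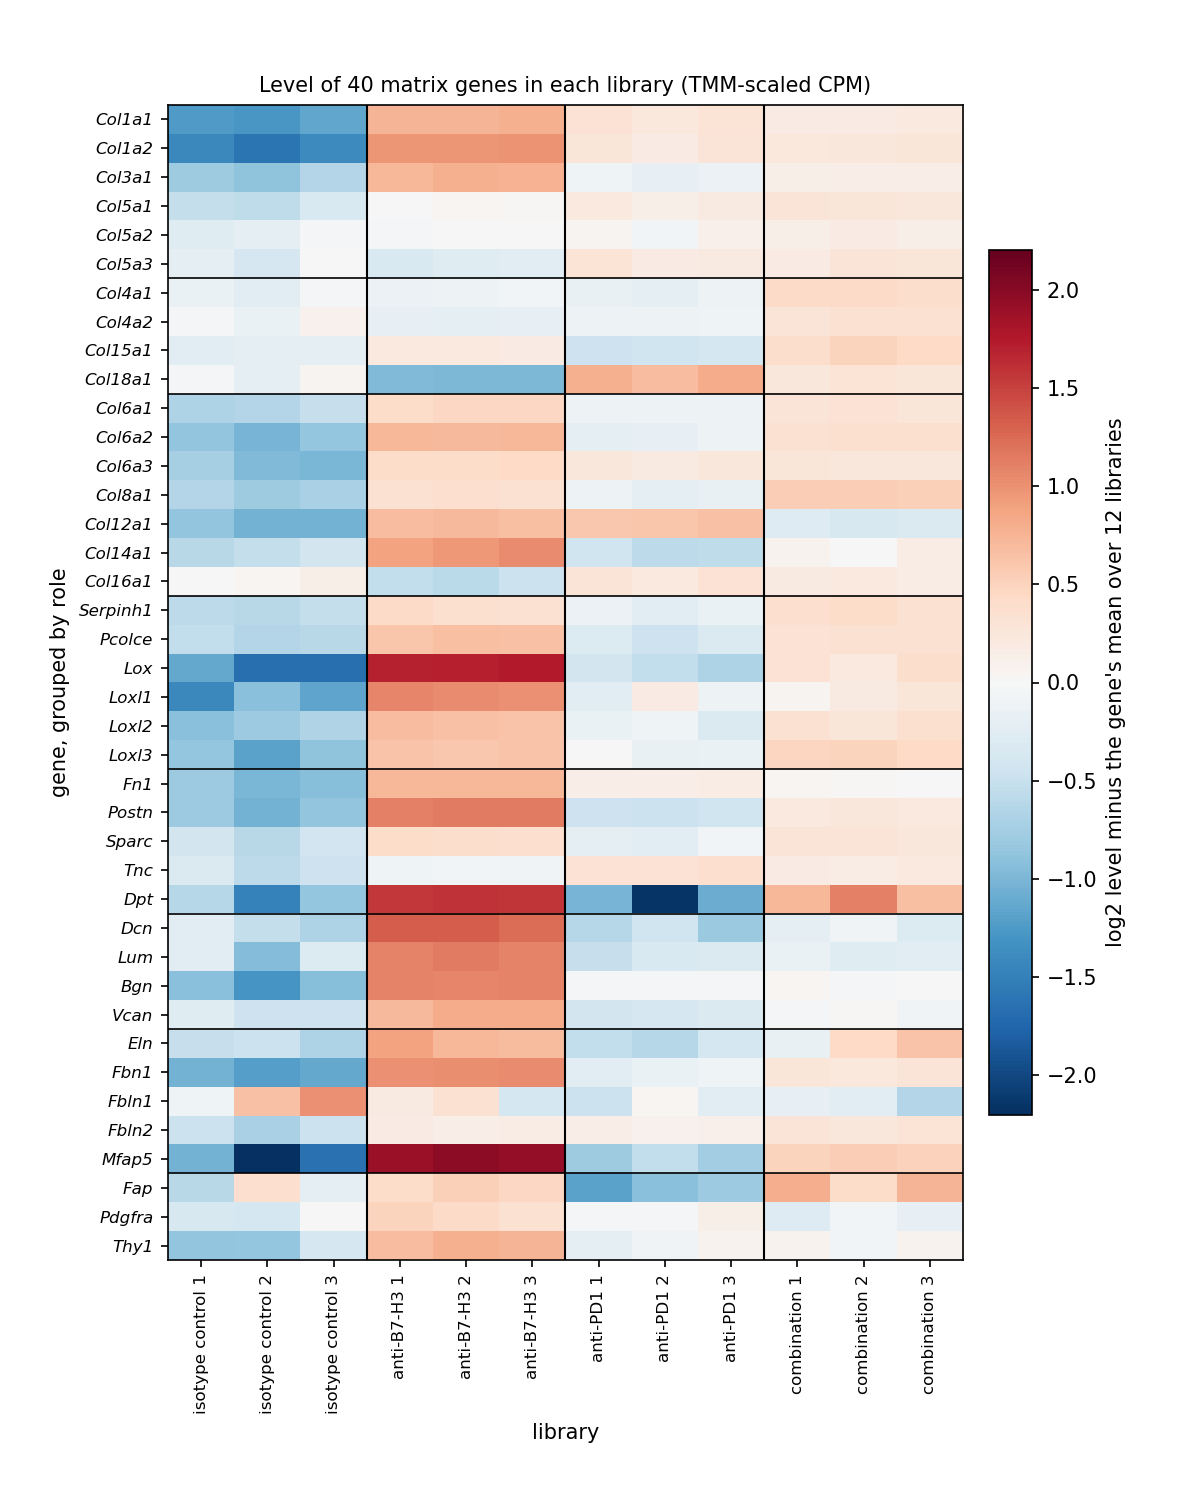
Level of each of the 40 genes in each of the 12 libraries, as log2 of TMM-scaled CPM minus the mean of that gene over the 12 libraries (red higher, blue lower; the colour scale ends at ±2.2). Rows are grouped by role and columns by antibody group. The anti-B7-H3 columns are the reddest for 26 genes, while Col18a1 is reddest in anti-PD1 and Col4a1 in combination.

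Anti-B7-H3 tumours held the highest mean level of 26 of the 40 genes, and in all 26 every anti-B7-H3 library lay above the 9 others, against 16.1% of all genes tested. The combination was highest for 10 genes, with no overlap for 7 of them (Col5a1, Col5a2, Col4a1, Col4a2, Col15a1, Col8a1 and Fbln2; 3.52% of all genes). Anti-PD1 was highest for 3, without overlap for Col18a1 and Tnc (4.47%). Isotype control lay below all other libraries for 24 genes (14.4%). Anti-B7-H3 lay below all others for Col4a2, Col18a1 and Col16a1 (14.7%), and anti-PD1 for Col15a1 and Fap (2.94%).

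Against isotype control, anti-B7-H3 tumours had 34 of the 40 genes called higher and 3 lower, where 30.8% and 33.3% of all genes were called (edgeR quasi-likelihood test, n = 3 a group). The median log2 fold change was 1.31 over the 40 genes and -0.04 over all genes. With anti-PD1 the counts were 27 higher and 3 lower (17.5% and 20.9% of all genes), with a median of 0.53. With the combination they were 36 higher and 1 lower (27.8% and 29.5%), with a median of 0.86. These 3 comparisons share the isotype control libraries. The size of every fold against isotype control depends on how libraries are scaled. For anti-B7-H3, the median over the 32 genes well above background moved by 0.77 upwards on the log2 scale when library size was taken as the reads outside the satellite-like genes, and by -0.75 when background was subtracted and the scaling refitted. Across 9 settings of scaling, filter and background, 28 of the 34 higher calls were kept with anti-B7-H3, 16 of the 27 with anti-PD1 and 24 of the 36 with the combination, each in every setting that tested the gene. Of the lower calls, Col18a1 with anti-B7-H3 was kept in every setting and the other 6 were not.

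**Figure D2:**
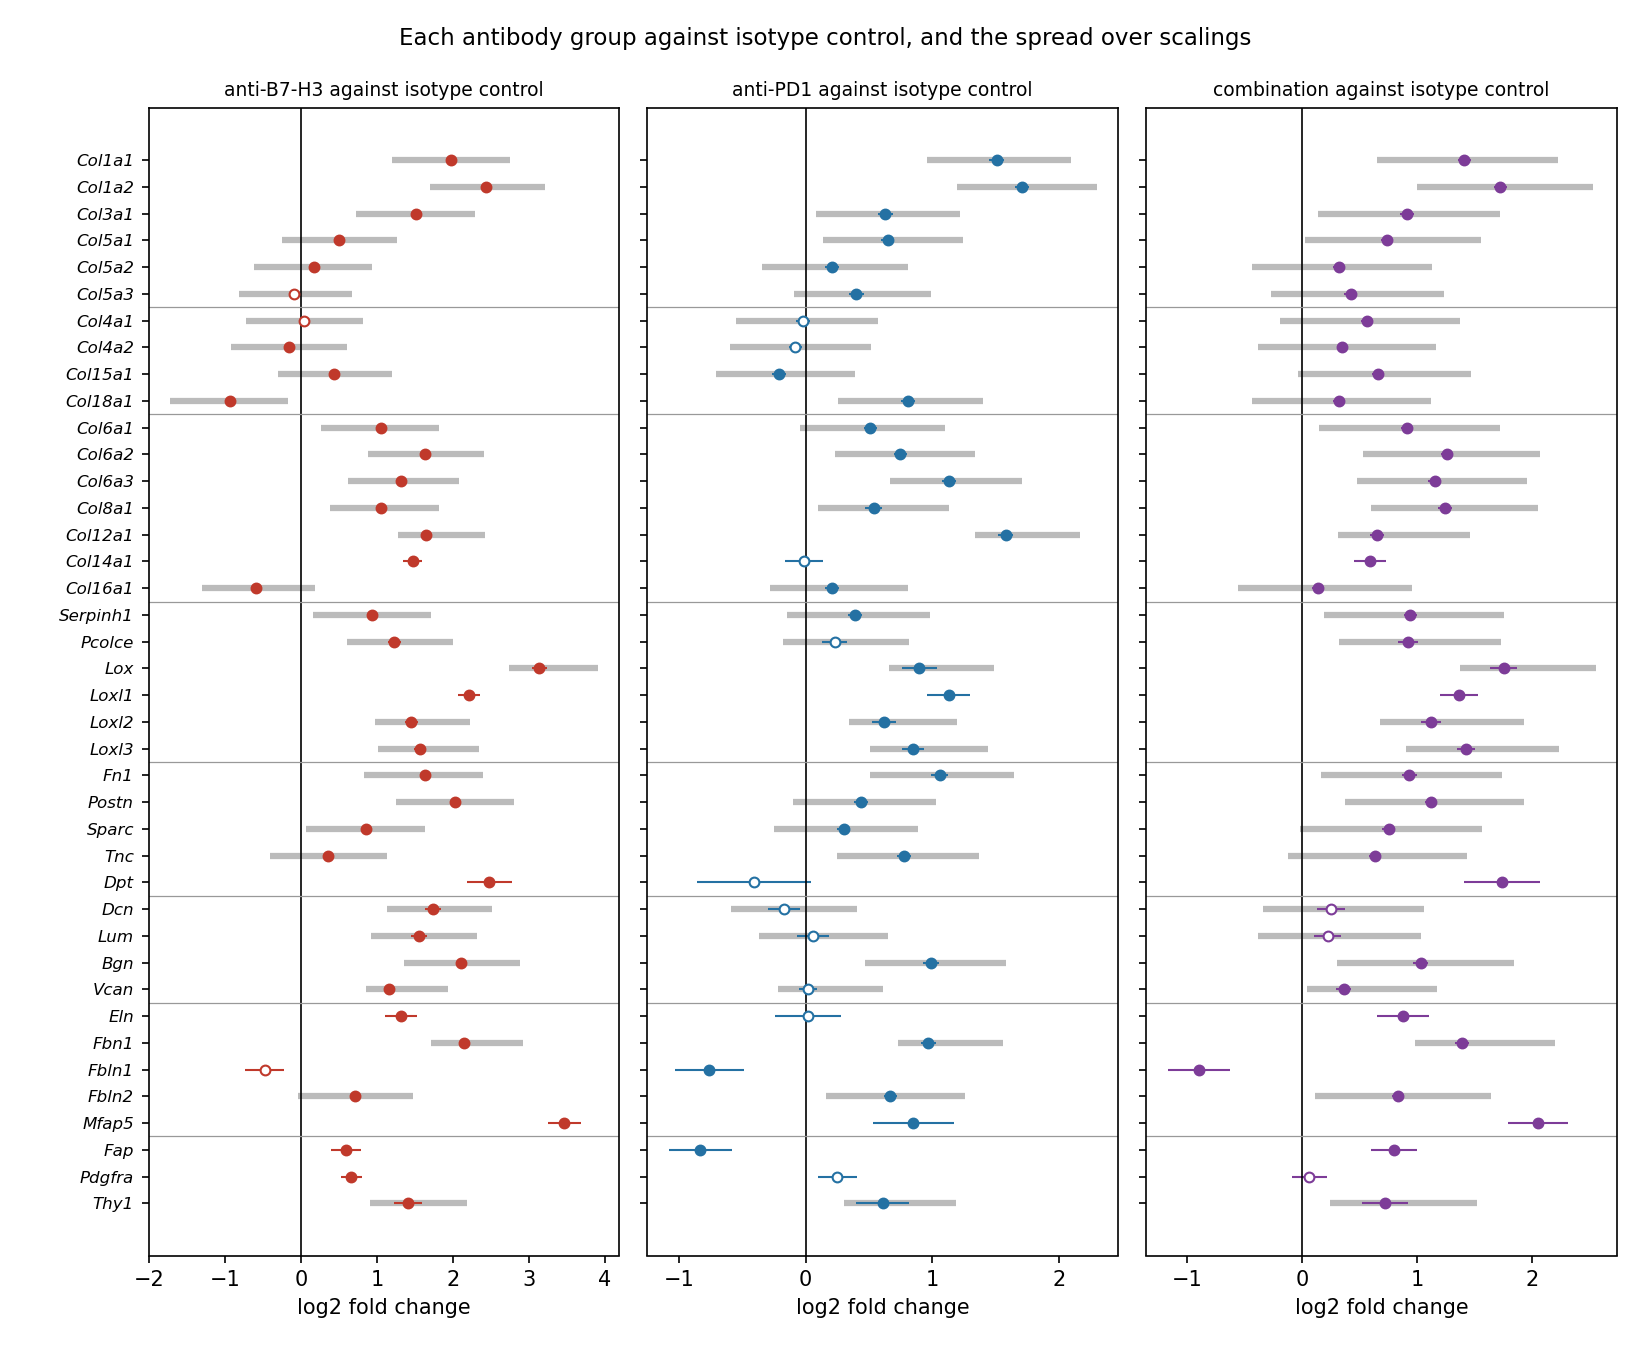
Log2 fold change of each gene in each antibody group against isotype control (3 libraries a group); filled points were called, open points were not, thin coloured bars are the standard error and grey bars the range over 9 settings of scaling, filter and background, drawn for the 32 genes well above background. Lox, Col1a2 and Fbn1 stay above 0 under every setting in all 3 panels, and the grey bars of Col5a2 and Col4a1 cross 0.

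The fibrillar collagens carried the largest part of the collagen signal. Col3a1, the single chain of collagen III, stood at 1046, 969 and 1145 CPM in isotype control, 2954, 3060 and 3050 with anti-B7-H3, 1680, 1580 and 1636 with anti-PD1, and 1964, 1986 and 1977 with the combination. The groups did not overlap. It rose by 1.52 ± 0.0609 (log2 fold change ± SE) with anti-B7-H3, 0.63 ± 0.0602 with anti-PD1 (lost with background subtracted and scaling refitted) and 0.91 ± 0.0603 with the combination.

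Collagen I is a trimer of 2 chains from Col1a1 and 1 from Col1a2. Col1a1 stood at 529, 520 and 566 in isotype control, 2109, 2110 and 2152 with anti-B7-H3, 1570, 1477 and 1540 with anti-PD1, and 1419, 1423 and 1451 with the combination. Col1a2 stood at 248, 216 and 251, then 1292, 1297 and 1303, then 792, 744 and 802, and last 779, 788 and 794, in the same order. For both chains isotype control was lowest and anti-B7-H3 highest without overlap. The rises against isotype control were 1.98 ± 0.0581, 1.51 ± 0.0576 and 1.41 ± 0.0574 for Col1a1 and 2.44 ± 0.0575, 1.71 ± 0.0572 and 1.72 ± 0.0571 for Col1a2 (anti-B7-H3, anti-PD1 and combination), called under every setting. Combination against anti-PD1 was not called for either chain (-0.10 ± 0.0542 and 0.01 ± 0.0507).

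The collagen V chains, minor partners of collagen I in fibrils, moved less. Col5a1 rose by 0.50 ± 0.052 with anti-B7-H3, 0.65 ± 0.0524 with anti-PD1 and 0.74 ± 0.052 with the combination, and its anti-B7-H3 value turned to -0.25 with background subtracted and scaling refitted. Col5a2, the neighbour of Col3a1, changed by 0.17 ± 0.0542, 0.21 ± 0.0545 and 0.32 ± 0.0543, all called, and all 3 turned negative in that setting and among the genes well above background alone. The anti-B7-H3 value of Col5a2 was also lost without isotype control replicate 1 (0.09). Col5a3 was not called with anti-B7-H3 (-0.10 ± 0.0588), though it was without isotype control replicate 2 (-0.20) or anti-PD1 replicate 1 (-0.13). It was called higher with anti-PD1 (0.40 ± 0.0588) and with the combination (0.42 ± 0.0581), and both turned negative with background subtracted and scaling refitted. On a per-length scale, Col3a1 held 689 CPM per kilobase in anti-B7-H3 tumours, Col1a1 487, Col1a2 319, Col5a2 168, Col5a1 79.1 and Col5a3 39.4.

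Basement membrane collagens did not all follow the fibrillar ones. Col18a1, whose product is the parent of endostatin, stood at 624, 554 and 661 in isotype control, 323, 319 and 319 with anti-B7-H3, 1094, 1010 and 1115 with anti-PD1, and 752, 779 and 760 with the combination. The anti-B7-H3 libraries were below and the anti-PD1 libraries above all others. It fell by 0.94 ± 0.0541 with anti-B7-H3 and rose by 0.81 ± 0.0533 with anti-PD1, called under every setting, while its rise with the combination (0.32 ± 0.0532) turned negative with background subtracted and scaling refitted (-0.44) and among genes well above background (-0.01). Directly, anti-B7-H3 against anti-PD1 gave -1.74 ± 0.0527 (adjusted p = 2.15e-41).

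Col4a1 and Col4a2, the chains of the main collagen IV trimer, were highest in combination tumours. Col4a1 stood at 453, 422 and 490 in isotype control, 459, 464 and 482 with anti-B7-H3, 451, 435 and 464 with anti-PD1, and 678, 677 and 659 with the combination. Col4a2 stood at 334, 310 and 369, then 305, 297 and 303, then 320, 320 and 323, and last 420, 435 and 436. The combination libraries lay above all others in both chains, and for Col4a2 the anti-B7-H3 libraries lay below all others. Against anti-B7-H3 the combination was higher by 0.52 ± 0.0478 for Col4a1 and 0.51 ± 0.0464 for Col4a2, and against anti-PD1 by 0.58 ± 0.0484 and 0.42 ± 0.047, called under every setting. Against isotype control, where the values were 0.56 ± 0.0508 and 0.35 ± 0.0504, both turned negative with background subtracted and scaling refitted. The small fall of Col4a2 with anti-B7-H3 (-0.16 ± 0.0507) lost its call without any of 7 libraries, every anti-B7-H3 and combination library and isotype control replicate 3 among them, where it lay between -0.12 and -0.07.

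Col15a1, a collagen at the outer face of basement membranes, stood at 190, 194 and 197 in isotype control, 261, 263 and 256 with anti-B7-H3, 165, 167 and 172 with anti-PD1, and 295, 317 and 305 with the combination. The 4 groups did not overlap, with anti-PD1 lowest. The combination was higher than anti-PD1 by 0.86 ± 0.0454 and than anti-B7-H3 by 0.23 ± 0.043, both under every setting. The 4 basement membrane chains together took 17.0% ± 0.439 of the reads of the 40 genes in isotype control, 6.26% ± 0.0377 with anti-B7-H3, 12.6% ± 0.181 with anti-PD1 and 12.8% ± 0.149 with the combination (SD, n = 3). Such a share also falls where the other genes rise. The 40 genes held 1.87% of reads outside the satellite-like genes in isotype control and 7.33% with anti-B7-H3. By level, Col4a1 was not called with anti-B7-H3, and Col15a1 was called higher, though not in every setting.

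**Figure D3:**
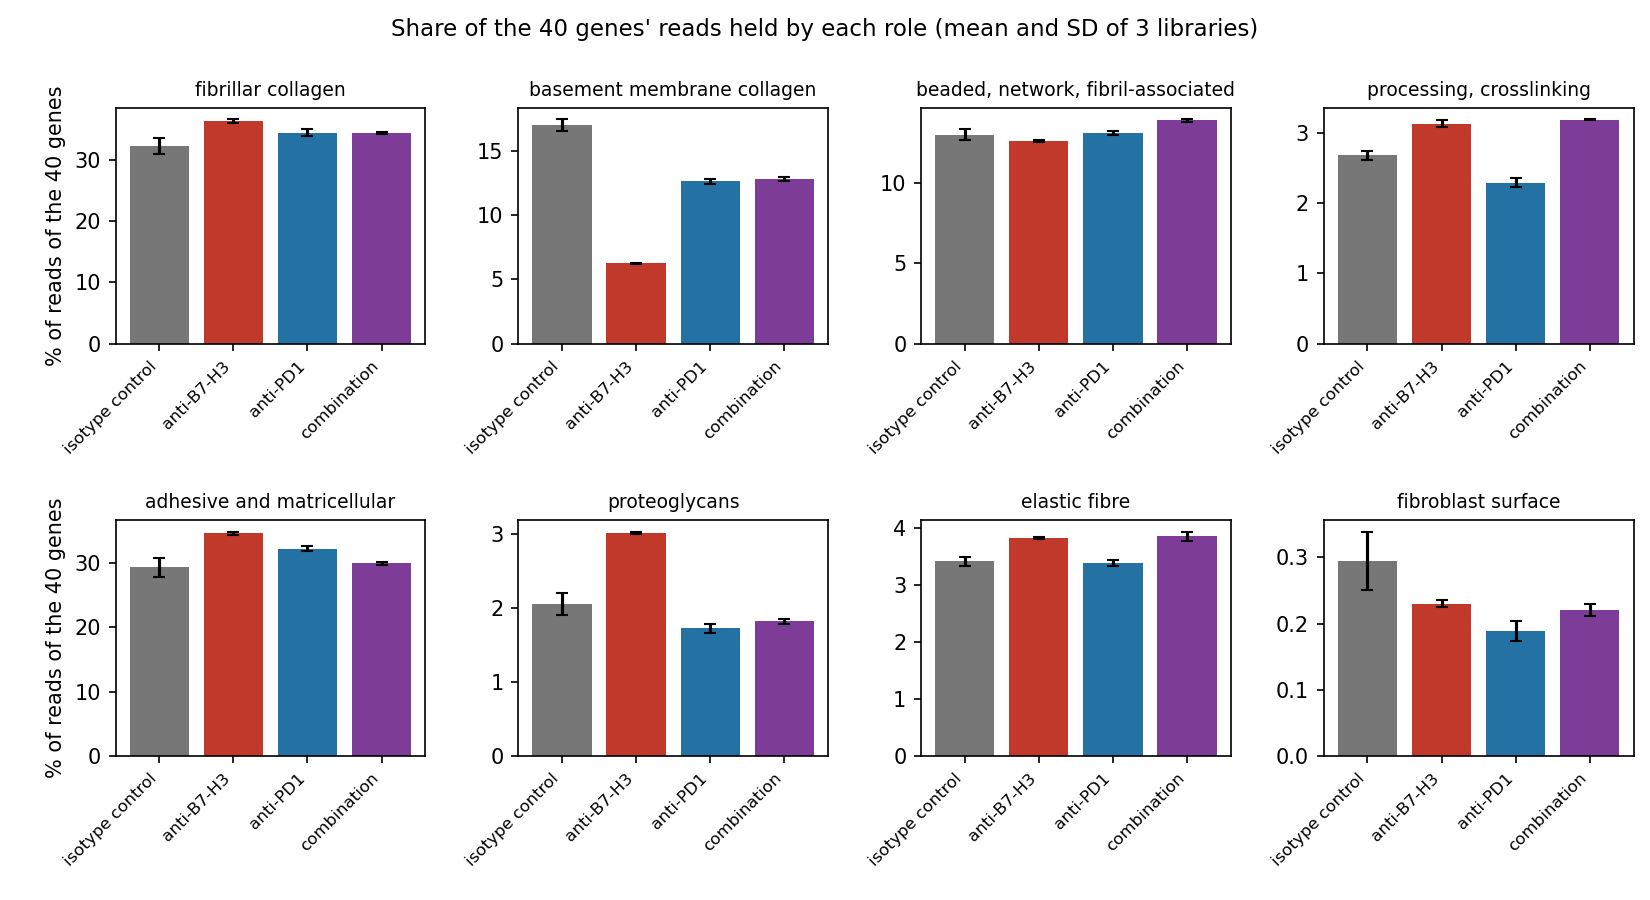
Share of the reads of the 40 genes that fell to each role in each antibody group; bars are means of 3 libraries and error bars the SD, and each panel has its own axis from 0. Basement membrane collagens held 6.26% with anti-B7-H3 against 17.0% in isotype control, and proteoglycans 3.02% against 2.06%. A share of this kind also falls where the other genes rise.

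Collagen VI forms beaded filaments next to cells from chains of Col6a1, Col6a2 and Col6a3. Col6a1 stood at 363, 369 and 406 in isotype control, 766, 791 and 793 with anti-B7-H3, 535, 539 and 540 with anti-PD1, and 707, 722 and 701 with the combination. Col6a2 followed at 221, 199 and 224, then 669, 663 and 671, then 353, 358 and 373, and last 511, 515 and 516. Both ran in the order isotype control, anti-PD1, combination, anti-B7-H3 with no overlap. Col6a3 stood at 318, 268 and 263, then 702, 699 and 715, then 630, 604 and 627, and last 637, 627 and 626, so that anti-PD1 and combination did not differ beyond their spread (0.02 ± 0.0494). The rises with anti-B7-H3 were 1.05 ± 0.0511, 1.63 ± 0.0525 and 1.31 ± 0.0546 for Col6a1, Col6a2 and Col6a3, and were called under every setting.

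Col12a1 and Col14a1 encode collagens that sit on the surface of fibrils. Col12a1 stood at 95.2, 84.4 and 84.3 in isotype control, 276, 282 and 274 with anti-B7-H3, 260, 264 and 270 with anti-PD1, and 142, 136 and 138 with the combination. Each antibody alone was above the combination, without overlap. It rose by 1.65 ± 0.0575, 1.58 ± 0.0585 and 0.65 ± 0.0606 against isotype control, and the combination stood at 0.5 of the level with anti-B7-H3 and 0.524 of that with anti-PD1 (log2 fold change -0.93 ± 0.0457), all under every setting. Background makes up 26.4% of its reads in isotype control. Col14a1 held 122 reads over the isotype control libraries where background gives 116, so the size of its change against that group is not read. Its changes of sign between settings are listed in the closing section. The anti-B7-H3 libraries (38.0, 39.8 and 42.3 CPM) lay above those of the combination (21.9, 20.5 and 23.0).

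Col8a1, a network-forming collagen of vessel walls, stood at 65.5, 59.6 and 62.8 in isotype control, 129, 132 and 130 with anti-B7-H3, 94.6, 88.3 and 92.1 with anti-PD1, and 149, 150 and 147 with the combination, where it was highest. Col16a1, a minor fibril-associated chain, stood at 169, 173 and 182, then 115, 111 and 121, then 204, 195 and 209, and last 193, 195 and 187. It was lowest with anti-B7-H3, at -0.80 ± 0.0466 against anti-PD1, and the combination exceeded anti-B7-H3 by 0.72 ± 0.0457, both under every setting. Its fall against isotype control (-0.59 ± 0.0541) turned to 0.18 when library size was the reads outside the satellite-like genes.

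Genes that act on collagen rose with all 3 treatments in most cases: 6 of 6 were called higher with anti-B7-H3, 5 of 6 with anti-PD1 and 6 of 6 with the combination, against 30.8%, 17.5% and 27.8% of all genes. Lox, the lysyl oxidase that starts crosslinking, stood at 16.7, 11.6 and 11.5 in isotype control, 118, 119 and 122 with anti-B7-H3, 27.6, 25.2 and 22.7 with anti-PD1, and 45.6, 42.4 and 47.9 with the combination. The 4 groups did not overlap. It rose by 3.14 ± 0.103 with anti-B7-H3, an 8.84-fold rise, by 0.90 ± 0.136 with anti-PD1 and by 1.75 ± 0.12 with the combination. Isotype control held 114 reads of Lox over 3 libraries, 24.3% of them at the background rate.

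The lysyl oxidase relatives followed with smaller steps. Loxl2 stood at 27.2, 29.6 and 32.3 in isotype control and at 82.6, 80.2 and 79.1 with anti-B7-H3, with anti-PD1 (46.6, 48.1 and 41.1) and combination (65.0, 61.8 and 65.8) between them. Loxl3 stood at 39.0, 31.2 and 37.9 and at 108, 106 and 108 in the outer groups, with 69.8, 62.4 and 63.5 and then 97.9, 99.0 and 95.2 between. For both the order was isotype control, anti-PD1, combination, anti-B7-H3. Loxl1, which is tied to elastic fibres, held 71 reads in isotype control against 40.8 from background, and its libraries at 40.1, 39.3 and 38.1 with anti-B7-H3 lay above 19.9, 21.7 and 23.0 with the combination.

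Serpinh1, the collagen chaperone Hsp47, stood at 132, 130 and 138 in isotype control, 264, 254 and 251 with anti-B7-H3, 181, 167 and 178 with anti-PD1, and 256, 261 and 251 with the combination. Anti-B7-H3 and combination overlapped, with a difference of 0.00 ± 0.0434. Pcolce, which enhances the trimming of procollagen, rose by 1.23 ± 0.0859 with anti-B7-H3 and 0.92 ± 0.0891 with the combination, and was not called with anti-PD1 (0.23 ± 0.0983; called without any of 7 libraries, each of anti-B7-H3 and combination among them, at 0.26 to 0.29).

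Among the adhesive proteins, Fn1 (fibronectin) was the most abundant of the 40 genes. It stood at 1781, 1548 and 1622 in isotype control, 5154, 5104 and 5107 with anti-B7-H3, 3442, 3414 and 3483 with anti-PD1, and 3177, 3145 and 3124 with the combination. It rose by 1.63 ± 0.0665, 1.06 ± 0.0657 and 0.93 ± 0.0655 against isotype control, under every setting. Per length it held 768 CPM per kilobase in anti-B7-H3 tumours, against 689 for Col3a1.

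Postn (periostin), which binds collagen and is made by activated fibroblasts, stood at 293, 249 and 280 in isotype control, 1108, 1132 and 1126 with anti-B7-H3, 373, 368 and 379 with anti-PD1, and 597, 605 and 592 with the combination. The groups did not overlap. It was higher by 2.03 ± 0.0537 with anti-B7-H3 and by 1.12 ± 0.0536 with the combination, while its 0.44 ± 0.0543 with anti-PD1 turned to -0.10 with background subtracted and scaling refitted. Tnc (tenascin C), another matricellular protein, ordered the groups differently, with 638, 537 and 584 in isotype control, 744, 763 and 755 with anti-B7-H3, 1000, 1000 and 1034 with anti-PD1, and 902, 896 and 923 with the combination. It was highest with anti-PD1, by 0.42 on the log2 scale over anti-B7-H3 (anti-B7-H3 against anti-PD1 -0.42 ± 0.0513). Sparc, a collagen-binding protein, was at 223 to 258 in isotype control, 440 to 450 with anti-B7-H3, 286 to 328 with anti-PD1 and 407 to 415 with the combination. Dpt (dermatopontin) held 15 reads in isotype control where background gives 13.6, against 379 reads with anti-B7-H3.

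Proteoglycans separated anti-B7-H3 from both other treatments. Dcn (decorin), which coats collagen fibrils, stood at 26.9, 22 and 19.7 in isotype control, 79.3, 78.8 and 74.1 with anti-B7-H3, 20.4, 23.2 and 17.8 with anti-PD1, and 27.1, 29.9 and 25.7 with the combination. Lum (lumican), its neighbour and relative, stood at 25.4, 15.6 and 24.5, then 63.9, 66.5 and 64.3, then 21.1, 24 and 24.2, and last 27.1, 25.0 and 25.4. Anti-B7-H3 libraries lay above all others for both genes. For Dcn the combination libraries also lay above those of anti-PD1, by 0.42 ± 0.0903 on the log2 scale, called under every setting, while for Lum that difference (0.16 ± 0.0892) was not called. Dcn rose by 1.74 ± 0.101 and Lum by 1.55 ± 0.105 with anti-B7-H3. Anti-PD1 gave -0.17 ± 0.128 and 0.06 ± 0.126 and the combination 0.25 ± 0.118 and 0.22 ± 0.12, none called. The combination values of both genes passed the test without any of several single libraries (7 for Dcn, up to 0.38 without isotype control replicate 1, and 5 for Lum, up to 0.34 without combination replicate 2).

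Bgn (biglycan) did rise with every treatment, at 89.0, 68.8 and 88.0 in isotype control, 357, 354 and 358 with anti-B7-H3, 163, 165 and 165 with anti-PD1, and 174, 165 and 168 with the combination. Its log2 fold changes were 2.11 ± 0.0602, 0.99 ± 0.0643 and 1.03 ± 0.0632, under every setting, and anti-PD1 and combination differed by 0.04 ± 0.0486. Vcan (versican), a large proteoglycan of loose matrix, stood at 73.3, 64.8 and 64.3, then 145, 156 and 155, then 66.7, 68.6 and 71.0, and last 87.2, 90.6 and 83.7, with a rise of 1.16 ± 0.0635 with anti-B7-H3. Background gives 29.5% of its isotype control reads.

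Of the elastic fibre genes, Fbn1 (fibrillin-1, the core of microfibrils) stood at 105, 93.6 and 99.2 in isotype control, 435, 442 and 445 with anti-B7-H3, 185, 196 and 204 with anti-PD1, and 262, 255 and 265 with the combination. The groups did not overlap, and it rose by 2.15 ± 0.0565, 0.97 ± 0.0597 and 1.39 ± 0.0579 under every setting. Mfap5, a microfibril protein, stood at 3.40, 1.20 and 2.23, then 25.8, 27.1 and 26.4, then 4.03, 4.77 and 4.08, and last 9.72, 10.1 and 9.84. Anti-B7-H3 was 6.13-fold above anti-PD1 (2.62 ± 0.131). Isotype control held 20 reads of Mfap5 where background gives 11, and its call with anti-PD1 (0.85 ± 0.32) was lost without isotype control replicate 2 (0.57) or 3 (0.80) or anti-PD1 replicate 2 (0.76).

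Fbln2 (fibulin-2) stood at 186 to 219 in isotype control, 336 to 345 with anti-B7-H3, 325 to 339 with anti-PD1 and 363 to 377 with the combination, so the 3 treatments lay close together. Eln (elastin) had 48 reads in isotype control where background gives 57.2, and 13.5 to 15.4 CPM with anti-B7-H3 against 7.41 to 12.8 with the combination. The difference of these groups (-0.44 ± 0.124) was not called without combination replicate 1 (-0.24) or anti-B7-H3 replicate 1 (-0.36). Fbln1, at 4.33, 7.20 and 9.29 in isotype control with 57 reads against 46.9 from background, was called lower with anti-PD1 and combination. Both calls ended without isotype control replicate 3 (-0.49 and -0.64), and that with anti-PD1 also without isotype control replicate 2 (-0.73) or anti-PD1 replicate 1 (-0.65). With background subtracted the direction of both turned.

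Of the 3 genes listed under fibroblast surface, all at few reads, Thy1 stood at 5.56, 5.60 and 7.80 in isotype control, 16.2, 17.3 and 17.0 with anti-B7-H3, 8.65, 9.55 and 10.7 with anti-PD1, and 10.6, 9.68 and 10.7 with the combination. Which cells of the whole tumour carried the Thy1 reads was not tested. Pdgfra, the receptor that marks most fibroblasts, stood at 12.7, 12.4 and 16.3, then 23.0, 21.7 and 20.6, then 15.8, 15.8 and 17.8, and last 13.3, 15.6 and 14.3. Thy1 and Pdgfra were both highest with anti-B7-H3 without overlap. In the isotype control libraries Thy1 held 18, 14 and 21 reads. Pdgfra held 41, 31 and 44 there and is not among the genes well above background. Fap, a protease of activated fibroblasts, stood at 5.26, 10.4 and 7.06, then 10.7, 11.6 and 11.1, then 3.55, 4.27 and 4.61, and last 14.0, 10.7 and 13.6, lowest with anti-PD1. Anti-B7-H3 exceeded anti-PD1 by 1.43 ± 0.166 and the combination exceeded it by 1.63 ± 0.164, both under every setting. In isotype control Fap held 62 reads where background gives 50.7, and its calls against that group were lost without isotype control replicate 1 (anti-B7-H3, 0.33) or 2 (anti-PD1, -0.57).

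Whether anti-PD1 changed these genes on top of anti-B7-H3 is asked by combination against anti-B7-H3. No isotype control library stands on either side of this comparison, though those libraries enter the scaling, filter and spread of the shared fit. Here 11 of the 40 genes were higher and 25 lower (19.8% and 19.1% of all genes), with a median of -0.40. Across the 9 settings 9 of the 11 and 22 of the 25 kept their call. The largest falls were those of Dcn (-1.49 ± 0.0687), Mfap5 (-1.42 ± 0.101), Lox (-1.40 ± 0.0567) and Lum (-1.33 ± 0.0713). Col1a1 fell by 0.57 ± 0.0542, Col1a2 by 0.72 ± 0.0504, Col3a1 by 0.61 ± 0.0587, Fn1 by 0.70 ± 0.0645, Postn by 0.91 ± 0.048 and Bgn by 1.08 ± 0.0458. The genes that rose were the 4 basement membrane chains, led by Col18a1 (1.25 ± 0.0521), the 3 collagen V chains, Col16a1, Col8a1, Tnc and Fbln2. By role, 0 of 4 proteoglycans rose and 4 fell, and 4 of 4 basement membrane chains rose. The small falls of Col6a1 (-0.14 ± 0.047), Col6a3 (-0.16 ± 0.049) and Loxl3 (-0.14 ± 0.0478) and the small rises of Col5a2 (0.15 ± 0.0521) and Fbln2 (0.12 ± 0.0457) lost their call without several single libraries.

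**Figure D4:**
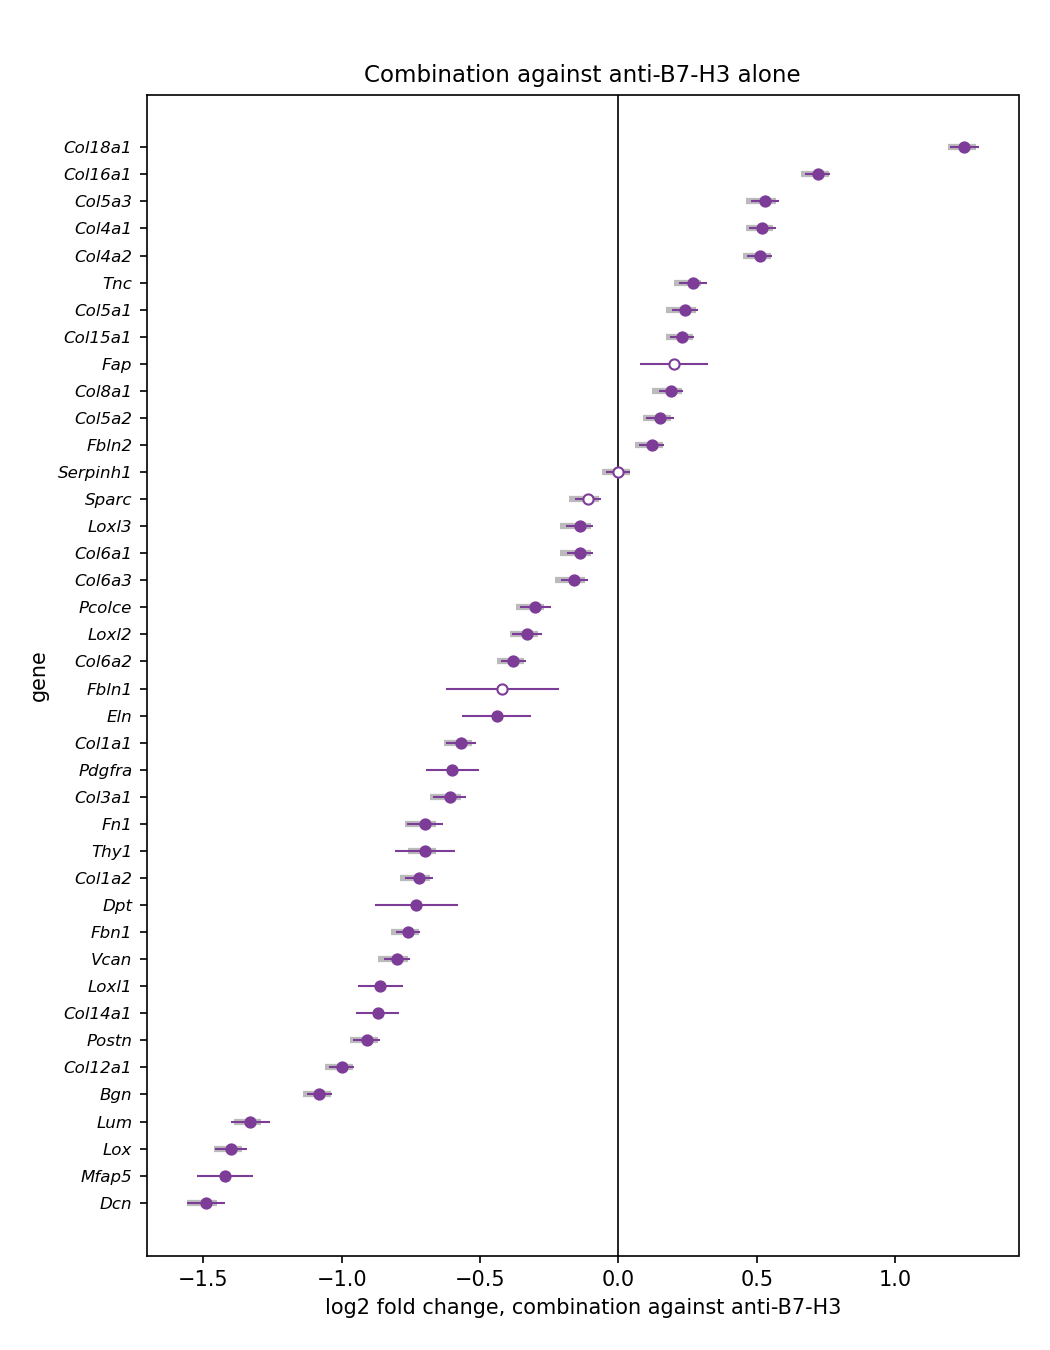
Log2 fold change of each gene in combination against anti-B7-H3 tumours (3 libraries each), sorted; filled points were called, thin bars are the standard error and grey bars the range over 9 settings for the 32 genes well above background. Dcn lies lowest at -1.49 and Col18a1 highest at 1.25, and the grey bars are short beside those drawn against isotype control.

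Anti-B7-H3 on top of anti-PD1, as combination against anti-PD1, gave 23 genes higher and 3 lower (23.1% and 23.4% of all genes), with a median of 0.37. Across the settings 21 of the 23 kept their call, as did Col12a1 and Col18a1 (-0.49 ± 0.0509) of the 3 lower, while Tnc (-0.16 ± 0.0513) did not. The largest rises were those of Dpt (2.16 ± 0.247), Fap, Mfap5 (1.20 ± 0.158) and Col15a1. The lower count was 5 without isotype control replicate 1 or 2, where Col1a1 and Fn1 joined at -0.11 to -0.10 and at -0.14. Directly against each other, anti-B7-H3 had 29 genes above anti-PD1 and 5 below (30.4% and 31.6% of all genes), with a median of 0.67. Of these 28 and 4 kept their call. Lox (2.24 ± 0.0666), Dpt (2.89 ± 0.223), Mfap5 and Dcn (1.92 ± 0.0774) led the higher side, and Col18a1, Col16a1, Col5a3 (-0.51 ± 0.0519), Tnc and Col5a1 made up the lower.

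The interaction sets the log2 effect of both antibodies together against the sum of the 2 single effects. It was negative in 29 of the 40 genes and positive in 6 (17.3% and 19.1% of all genes), with a median of -0.84 against 0.04 over all genes. The most negative were Col12a1 (-2.58 ± 0.0736), Col1a2 (-2.43 ± 0.0763), Lox (-2.30 ± 0.141) and Mfap5 (-2.27 ± 0.317). Col1a1 (-2.08 ± 0.079), Bgn (-2.07 ± 0.0784), Loxl1 (-1.99 ± 0.187) and Fn1 (-1.76 ± 0.092) followed. The 6 positive ones were Col4a1, Col4a2, Col15a1, Col18a1, Col16a1 and Fap, the last of which (1.04 ± 0.278) lost its call without isotype control replicate 2 (0.78). The isotype control libraries enter this contrast, and 21 of the 29 negative calls and 0 of the 6 positive ones were kept across the 9 settings. In 17 genes anti-PD1 alone was called higher, anti-PD1 on top of anti-B7-H3 was called lower and the interaction was called (4.54% of all genes). They were Col1a1, Col1a2, Col3a1, Col6a1, Col6a2, Col6a3, Col12a1, Lox, Loxl1, Loxl2, Loxl3, Fn1, Postn, Bgn, Fbn1, Mfap5 and Thy1. Across the 9 settings 10 of the 17 kept all 3 calls, and Col3a1, Col6a1, Col6a3, Loxl3, Postn, Mfap5 and Thy1 lost at least 1 of them. The call of Thy1 with anti-PD1 alone (0.61 ± 0.21) was lost without isotype control replicate 1 (0.50) or 2 (0.53) or anti-PD1 replicate 3 (0.52). Among the 40, Col15a1 alone showed the reverse (5.56% of all genes), and it did not keep all 3 calls across the settings.

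Ratios between chains within a library use no scaling, and 5 were tested. On a per-kilobase scale Col1a1 to Col1a2 was 2.11 ± 0.124 (SD, n = 3) in isotype control, 1.53 ± 0.0123 with anti-B7-H3, 1.83 ± 0.0339 with anti-PD1 and 1.70 ± 0.0104 with the combination. Col3a1 to Col1a1 was 1.94 ± 0.0799, 1.42 ± 0.0251, 1.06 ± 0.00458 and 1.37 ± 0.0166, lowest with anti-PD1. Col6a1 to Col6a2 was 1.76 ± 0.111, 1.17 ± 0.0246, 1.48 ± 0.0342 and 1.38 ± 0.0219. All 3 ratios differed between groups (exact permutation test over the 12 libraries, p = 6.49e-05, the smallest possible, adjusted p = 0.000108 over the 5 ratios). Col6a3 to Col6a1 was 0.265 ± 0.0412, 0.318 ± 0.0056, 0.407 ± 0.01 and 0.313 ± 0.00588 (exact permutation test, adjusted p = 0.00114). Col4a1 to Col4a2, the head-to-head pair printed above, moved least, at 1.44 ± 0.0198, 1.66 ± 0.0483, 1.5 ± 0.0419 and 1.67 ± 0.0573 (exact permutation test, adjusted p = 0.00227).

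**Figure D5:**
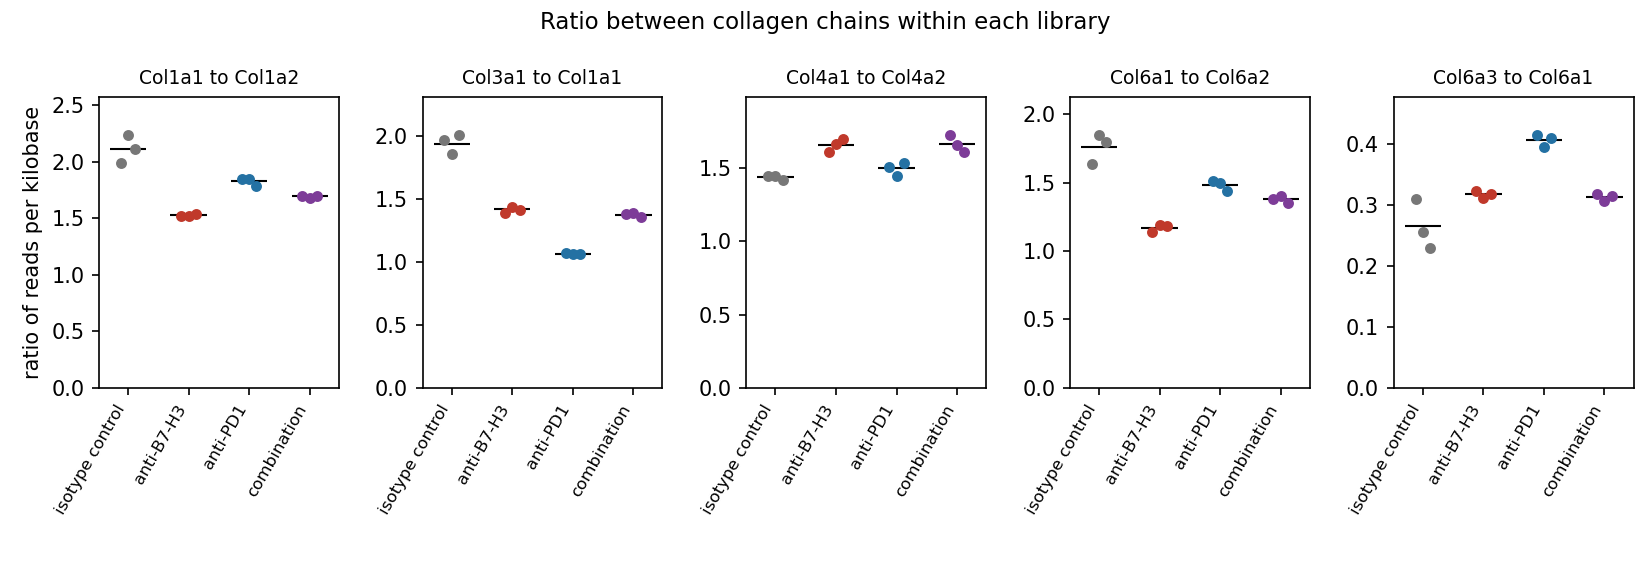
Ratio of reads per kilobase between 2 collagen chains within each library; points are libraries, black bars are group means and each axis starts at 0. Col1a1 to Col1a2 runs from 2.11 in isotype control to 1.53 with anti-B7-H3, and Col3a1 to Col1a1 is lowest with anti-PD1 at 1.06.

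Genes that serve the same pathway were counted from lists that also hold genes near background. Of all genes tested, 30.8% were called higher and 33.3% lower with anti-B7-H3, 17.5% and 20.9% with anti-PD1, 27.8% and 29.5% with the combination, and 19.8% and 19.1% in combination against anti-B7-H3, and the counts of each list stand beside these shares. Of 25 collagen biosynthesis and export genes tested (12 well above background), 21 were higher and 2 lower with anti-B7-H3, 8 and 3 with anti-PD1, and 15 and 1 with the combination. Bmp1, the protease that trims procollagen, rose by 1.51 ± 0.0757, 0.69 ± 0.0837 and 1.29 ± 0.0776. Against anti-B7-H3 the combination had 5 higher and 14 lower. Of 16 TGF-beta signalling genes, 8 were higher and 2 lower with anti-B7-H3, 7 and 1 with anti-PD1 and 9 and 2 with the combination, and Tgfb1, a ligand that drives collagen genes in fibroblasts, rose by 2.06 ± 0.103 with anti-B7-H3 and 1.47 ± 0.11 with the combination. Of 24 other collagen chains tested, 16 were lower and 1 higher with anti-B7-H3, but only 2 of the 24 stand well above background, which itself fell in that group. Of 9 collagen receptors and uptake genes, 4 were higher and 5 lower with anti-B7-H3. Mrc2, an uptake receptor for collagen, rose by 1.99 ± 0.115.

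Markers of other cells differed between the groups as well, some in the same order as the matrix genes and some not. Of 19 other fibroblast genes tested, 15 were higher and 3 lower with anti-B7-H3, 7 and 4 with anti-PD1 and 8 and 3 with the combination, and the combination against anti-B7-H3 had 3 higher and 13 lower. Their summed level over 20 genes was 1057 to 1115 CPM in isotype control, 1728 to 1782 with anti-B7-H3, 1491 to 1579 with anti-PD1 and 1708 to 1734 with the combination, with Tcf21 at 0 in anti-B7-H3 and combination. All 12 macrophage markers were called higher with anti-B7-H3 (30.8% of all genes), 7 of them well above background, and their sum was 347 to 372, 2583 to 2603, 471 to 492 and 1298 to 1305 in the same order. Endothelial markers summed to 82.9 to 92.1, 120 to 124, 61.3 to 67.8 and 94.7 to 101, with 0 of 10 well above background. Their 746 reads in isotype control stand beside 538 from background, and their 1545 with anti-PD1 beside 386. No difference of the other groups from isotype control is therefore read from the endothelial sums. Mural markers summed to 404 to 467, 294 to 312, 436 to 457 and 393 to 408, with 3 of 9 tested well above background. Their 3673 reads in isotype control stand beside 702 from background, and their 11551 with anti-B7-H3 beside 8.72. Mural, melanocyte and keratinocyte sums were lowest with anti-B7-H3, where the matrix genes were highest. Background was lowest there too, and its part in these sums was not tested. Skeletal muscle markers, 0 of 8 well above background, summed to 45.8 to 48.4, 0.717 to 1.07, 27.7 to 35.4 and 110 to 113, with Myh4 at 0 with anti-B7-H3. Their 393 reads in isotype control stand beside 406 from background, so no difference of the other groups from isotype control is read from them. In combination they held 3707 reads against 38.6 from background. Keratinocyte markers, 0 of 3 tested well above background and with 596 reads in isotype control against 233 from background, summed to 55.7 to 87.2, 0.0827 to 0.225, 23.7 to 32.0 and 1.97 to 2.87, with 5 of 7 (Krt5, Krt14, Krt1, Lor and Flg) at 0 with anti-B7-H3. Melanocyte lineage markers, those of the tumour's own cell type, summed to 90.6 to 107, 25.5 to 28.8, 83.1 to 86.9 and 44.4 to 46.8, with Tyrp1 and Dct at 0 with anti-B7-H3. Of the 4 tested, 1 stood well above background. Their 850 reads in isotype control stand beside 211 from background, and their 1016 with anti-B7-H3 beside 2.62. The part of these cells and of the satellite-like reads in the matrix gene results was not tested.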

How the data were processed

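Libraries were made with an Illumina kit after removal of ribosomal RNA, from total RNA of integrity number 7.0 at least, per the labels' protocols. FastQC 0.11.8 was run on reads and the build was GRCm38, per the submitters' processing notes. The program that assigned reads, and its setting for strand, are not given in the sources used here. The authors deposited 1 file per library with estimated counts of reads per transcript, not scaled, per the file headers. Their lengths are coding lengths (87.3% are multiples of 3).

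Of 58083 transcripts, 57473 were matched to GENCODE M21 in any version, 57169 of them in the same version, and 610 stayed unmatched. Estimated counts were summed over 22195 genes and rounded. Library totals ran from 3593110 to 21298142 reads, and reads summed over a group stand beside genes of few reads. edgeR 4.0.16 in R 4.3.3 tested the 12 libraries in 1 fit (quasi-likelihood with robust spread, TMM scaling, expression filter), with Benjamini-Hochberg adjustment within each of 7 comparisons. It was tested on simulated data in which all libraries shared a common profile, apart from genes changed with anti-B7-H3. That simulation did not copy the group differences in satellite-like reads or background, so it does not show how the fit handles them. Adjusted p-values come from the edgeR fit of the 12 libraries unless another test is named. Alternatives were other scalings (DESeq2 1.42.0 size factors, library size outside the satellite-like genes), the DESeq2 Wald test, an offset for effective length, the replicate number as a block, fits of only the groups compared, fits with no filter on low counts, without satellite-like genes or with only genes well above background, a spread that is not robust, leaving out each library, and, chosen after seeing the data, subtraction of background with the scaling refitted or kept. The genes and lists were chosen with earlier results of these data known. Genes named with values in every library were the most abundant 3 of each role, the called genes with the largest changes (at most 4 a direction and comparison) and genes called against the majority. Others are given for completeness. No 2 libraries held identical values. Median chi-squares between libraries over genes outside the satellite-like ones were 0.547 to 0.986 within groups, where counting noise gives 0.455, and 2.11 to 11.5 between groups.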

Additional observations from a re-analysis of the deposited data

Results flagged for a closer look

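The effect of anti-PD1 on the matrix genes differed with and without anti-B7-H3. The interaction term was called in 29 of the 40 genes with a negative sign and in 6 with a positive sign (edgeR), against 17.3% and 19.1% of all genes. Across 9 settings of scaling, filter and background 21 of the 29 and 0 of the 6 kept their call. In 17 genes anti-PD1 was called higher alone and lower on top of anti-B7-H3, and in 1 gene, Col15a1, the reverse (4.54% and 5.56% of all genes). Of these, 10 of the 17 and 0 of the 1 kept all calls of the pattern across the settings. The share of satellite-like reads also differs between the 4 groups, and its part in these differences was not tested. No group of 3 libraries is large enough for a test of single outlying libraries.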

How the results depend on the processing

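Folds against isotype control depend on scaling and background, while the 5 within-library ratios and the share of reads held by the 40 genes passed their permutation test in every alternative run for them. The gap between the highest and the lowest group mean of that share was 5.46 percentage points. It was 7.37 for the 32 of the 40 genes well above background, counted against genes well above background alone. Taking library size as reads outside the satellite-like genes put the median log2 fold change of all genes tested at 0.44 (anti-B7-H3), 0.38 (anti-PD1) and 0.55 (combination), where it was -0.04, -0.04 and -0.01 with TMM (16100 genes passed the filter against 13478). It raised the share of higher among all calls from 48.0% to 60.4%, from 45.6% to 67.7% and from 48.5% to 63.3%, and subtraction with scaling kept raised it to 84.1%, 90.5% and 88.0%. In the comparison of combination with anti-B7-H3 that share went from 50.9% to 61%, and the share of positive among interaction calls went from 52.5% to 31.1%, or to 11.1% with background subtracted and scaling kept.

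Counts of genes called lower against isotype control were 1 (anti-B7-H3), 0 (anti-PD1) and 0 (combination) with library size outside the satellite-like genes, which also gave 0 positive interactions. They were 5 and 5 (anti-B7-H3, anti-PD1) among genes well above background, which gave 23 higher with the combination (32 genes tested), and 9, 8 and 9 with background subtracted and scaling refitted. With anti-PD1 the count was 1 without the filter, 1 with satellite-like genes left out and 1 with background subtracted and scaling kept, which gave 0 with the combination. Combination against anti-PD1 had 6 lower among genes well above background, 6 by the DESeq2 Wald test, 6 in the fit of only the groups compared and 11 with scaling refitted, and anti-B7-H3 against anti-PD1 had 10 lower in that setting.

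With background subtracted and scaling refitted, log2 fold changes turned sign as follows. Anti-B7-H3 against isotype control: Col5a1 -0.25, Col5a2 -0.62, Col4a1 -0.73, Col15a1 -0.30, Tnc -0.41, Fbln2 -0.04. Anti-PD1 against isotype control: Col5a2 -0.34, Col5a3 -0.09, Col6a1 -0.04, Col14a1 3.14, Col16a1 -0.28, Serpinh1 -0.15, Postn -0.10, Sparc -0.25, Fbln1 0.17, Fap 0.17. In isotype control Col14a1, Fbln1 and Fap held reads close to background, so the size of their values is not read. Combination against isotype control: Col5a2 -0.44, Col5a3 -0.27, Col4a1 -0.19, Col4a2 -0.38, Col15a1 -0.04, Col18a1 -0.44, Col16a1 -0.56, Sparc -0.02, Tnc -0.12, Dcn -0.34, Lum -0.38, Fbln1 0.40. Combination against anti-PD1: Col1a2 -0.20, Col5a1 -0.12, Col5a3 -0.18, Col6a3 -0.18, Bgn -0.17, Fbln2 -0.05. Anti-B7-H3 against anti-PD1: Col4a1 -0.18, Col6a3 -0.05, Col12a1 -0.15, Fbln2 -0.20. Interaction: Col5a1 0.12, Col5a2 0.52, Col8a1 0.12, Serpinh1 0.18, Sparc 0.17, Tnc 0.04.

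With library size outside the satellite-like genes the turns were Col5a3 0.67, Col4a2 0.61 and Col16a1 0.18 (anti-B7-H3), Col4a1 0.57, Col4a2 0.52, Col15a1 0.39, Col14a1 0.58 and Dcn 0.41 (anti-PD1), Tnc 0.06 (combination against anti-PD1), Col5a1 0.03 (anti-B7-H3 against anti-PD1), and Col5a3 -0.43, Col4a1 -0.02, Col15a1 -0.12, Col18a1 -0.10 and Col16a1 -0.04 (interaction). Among genes well above background they were Col5a2 -0.10 and Col4a1 -0.22 (anti-B7-H3), Col5a2 -0.03, Col16a1 -0.03 and Vcan -0.22 (anti-PD1), and Col5a2 -0.01, Col18a1 -0.01 and Col16a1 -0.19 (combination). Without the filter they were Col5a3 0.21 and Col4a2 0.15 (anti-B7-H3) and Col4a1 0.15 (anti-PD1). With satellite-like genes left out they were Col4a2 0.07 and Col4a1 0.16. With background subtracted and scaling kept they were Fbln1 1.64 (anti-B7-H3), Col14a1 3.70, Fbln1 0.73 and Fap 0.74 (anti-PD1), Fbln1 1.18 (combination) and Fap -0.55 (interaction). For Col14a1, Fbln1 and Fap, whose isotype control reads lay close to background, the size of these values is again not read.

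Leaving out each library in turn gave, higher and lower, 32 to 34 and 2 to 4 (anti-B7-H3), 25 to 28 and 2 to 3 (anti-PD1), 35 to 38 and 0 to 1 (combination), 9 to 11 and 21 to 26 (combination against anti-B7-H3), 23 to 25 and 2 to 5 (combination against anti-PD1), 29 and 5 to 6 (anti-B7-H3 against anti-PD1), and 6 and 29 (interaction). No pairing by replicate number was seen: the 18 same-numbered pairs correlated between -0.04 and 0.05, and 5 of 12 libraries correlated best with their own number. Median chi-squares between libraries of a group were 0.547 to 0.986, where counting noise gives 0.455. Counting noise is thus a large part of the spread within groups, and this check cannot exclude pairing. The replicate block changed 2 of 280 calls, leaving 278 as they were. The fit of only the groups compared does not apply to the interaction. Isotype control limits depth most, with 1340740 reads outside the satellite-like genes in its shallowest library. The cause of these changes was not tested.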
